A study of Mus musculus with 13 samples.

Results

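Expression of 50 genes of mitosis and the G2/M transition was followed in the brains of mouse embryos with and without Meg3. The genes were listed by function and not by a measured value, with earlier results of these data known. They were taken as mitotic cyclins and kinases and as parts of the kinetochore, the spindle and the cleavage furrow. A member was represented by the probe sets annotated to its symbol alone, and where there were several the 1 with the highest mean signal over the arrays was used. Of the 50 members, 49 had such a probe set among 18193 named genes, and Ccnb1 (cyclin B1) had none in the annotation used. A filter on low signal left 48 of these 49 among the 12918 genes tested. The member below the filter was Kif15, a spindle kinesin, with a mean signal of 33.1 against a filter at 56.9.

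In a dividing cell these proteins work in sequence. Cyclins A and B with Cdk1 drive entry into mitosis, condensin and topoisomerase shape the chromosomes, the kinetochores attach them to the spindle, and a checkpoint holds anaphase until attachment is complete. The anaphase-promoting complex then releases the sister chromatids, and the central spindle and the contractile ring split the cell. Most of these transcripts accumulate in G2 and mitosis and are low in cells that have left the cycle, so in a late embryonic brain they come mainly from progenitor cells.

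Expression was measured in whole brain at embryonic day 18.5 on Affymetrix mouse arrays, with 1 embryo per array. There were 6 wild-type embryos and 7 embryos labelled Meg3 knock-out, from 5 litters numbered 148, 219, 238, 250 and 262. Litter 148 gave knock-out 1 alone; litter 219 gave wild-type 1, wild-type 2 and knock-out 2. Wild-type 3 and knock-outs 3 and 4 came from litter 238, wild-types 4 and 5 and knock-outs 5 and 6 from litter 250, and wild-type 6 and knock-out 7 from litter 262. No source used here gives the extent of the deletion, the strain or the parent that carried the allele. Meg3 is a long non-coding RNA expressed from the maternal chromosome.

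The labels held in every array. Meg3 signal was 3109 to 6251 in wild-type and 264 to 589 in knock-out brains, and its log2 change of -3.64 ± 0.20 (SE) had a limma adjusted p of 1.3e-07. As deposited, the median signal of an array was 82.9 to 124. The 15 neuronal markers (Tubb3, Dcx, Snap25 and others) summed to a signal of 97262 to 129314 in wild-type and 102849 to 128289 in knock-out brains, and none of them stood at 0. Wild-type 1, wild-type 2 and knock-out 1 stood apart, with median correlations to the other arrays of 0.942, 0.955 and 0.960, against 0.971 to 0.982 for the other 10 arrays. Wild-type 2 and knock-out 1 also had the highest 3′ to 5′ ratios of the Actb control probe sets, 2.92 and 1.81, against 1.32 to 1.495 elsewhere, a measure of RNA integrity.

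The start regions of the members share sequence elements that the choice of genes did not use. The cell cycle genes homology region, or CHR, is bound by the DREAM complex in resting cells and by complexes holding B-MYB and FOXM1 in dividing cells, and NF-Y binds CCAAT boxes beside it. RefSeq windows of the GRCm38.p6 build, from 250 bases before to 50 bases after a gene's start, matched 42 members by symbol with 45 windows. The CHR letters TTTGAA, searched on both strands, were in 34 of 45 member windows (75.6%) and in 17.9% of all 32851 windows. The variant TTTAAA was in 11 (24.4%) against 13.2%, and CCAAT on either strand was in 35 (77.8%) against 37.4%. At least 2 CCAAT matches were in 24 member windows (53.3%) against 11.7%. Either TTTGAA or TTTAAA, together with a CCAAT, was in 32 (71.1%) against 10.7%. Of 44 TTTGAA matches in member windows, 33 (75%) lay between 100 bases before and 50 bases after the start, against 41.6% of 6737 matches in all windows. Bub3, Ect2 and Prc1 each contributed overlapping windows, and a match is a description of letters, not of binding.

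Windows of 4 members are printed because these members had the highest mean signals among those with a CHR or CCAAT match, and Cdk1 was added after its values were seen, as the kinase at the centre of the group. Each is read 5′ to 3′ on the strand of the gene, with CHR and CCAAT matches on either strand in capitals (TTCAAA and ATTGG are the opposite-strand forms). The positions were chr7:131560120-131560419 on the plus strand for Bub3, chr7:127042371-127042670 on the minus strand for Kif22 and chr4:118437294-118437593 on the minus strand for Cdc20. For Ube2c they were chr2:164769679-164769978 on the plus strand, and for Cdk1 chr10:69352863-69353162 on the minus strand.
Bub3: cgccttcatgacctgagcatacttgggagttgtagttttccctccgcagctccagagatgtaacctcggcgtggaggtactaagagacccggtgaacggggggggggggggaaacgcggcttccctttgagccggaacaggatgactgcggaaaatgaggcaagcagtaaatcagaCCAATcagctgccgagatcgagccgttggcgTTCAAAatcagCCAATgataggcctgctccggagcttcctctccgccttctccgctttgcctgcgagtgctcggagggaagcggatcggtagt
Kif22: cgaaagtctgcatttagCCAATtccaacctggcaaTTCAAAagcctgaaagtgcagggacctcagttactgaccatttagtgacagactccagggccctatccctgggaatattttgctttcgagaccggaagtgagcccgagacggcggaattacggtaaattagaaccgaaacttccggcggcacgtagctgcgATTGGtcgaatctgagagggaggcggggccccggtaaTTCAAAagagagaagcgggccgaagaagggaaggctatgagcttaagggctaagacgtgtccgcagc
Cdc20: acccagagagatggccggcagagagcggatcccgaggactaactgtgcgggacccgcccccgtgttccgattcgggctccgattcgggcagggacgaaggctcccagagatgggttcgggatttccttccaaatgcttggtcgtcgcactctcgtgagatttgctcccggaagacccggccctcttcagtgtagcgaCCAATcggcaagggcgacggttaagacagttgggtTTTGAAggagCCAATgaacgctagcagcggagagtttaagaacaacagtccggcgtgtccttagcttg
Ube2c: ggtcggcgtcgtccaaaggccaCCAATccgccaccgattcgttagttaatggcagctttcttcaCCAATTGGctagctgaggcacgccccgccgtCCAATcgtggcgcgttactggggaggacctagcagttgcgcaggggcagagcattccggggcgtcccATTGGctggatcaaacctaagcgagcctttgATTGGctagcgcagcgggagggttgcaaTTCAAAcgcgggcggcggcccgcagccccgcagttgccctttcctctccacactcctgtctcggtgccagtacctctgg
Cdk1: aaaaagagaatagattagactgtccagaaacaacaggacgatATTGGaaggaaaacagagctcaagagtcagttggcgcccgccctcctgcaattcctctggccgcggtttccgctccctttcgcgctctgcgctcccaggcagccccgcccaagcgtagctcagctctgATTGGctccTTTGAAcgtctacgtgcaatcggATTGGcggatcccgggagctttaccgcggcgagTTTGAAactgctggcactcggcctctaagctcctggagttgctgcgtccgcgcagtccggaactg
All 5 windows held TTTGAA and at least 2 CCAAT matches, and in Ube2c the run CCAATTGG holds overlapping matches of opposite strand. The windows of Pttg1, Mad2l1, Nuf2 and Nusap1 held neither motif.

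Loss of Meg3 came with no called difference in any mitotic gene, and with slightly lower mean levels in most of them. Values were compared as log2(signal + 16), so the change of weak genes is understated. With limma and Benjamini-Hochberg adjustment over all genes, 0 of 48 members passed an adjusted p of 0.05, against 3 of 12918 genes (0.0232%), all lower in knock-out: Meg3 and its imprinted neighbours Rian and Mirg, named here because the count is small. At an unadjusted p under 0.05, 0 members were lower, against 0.255% of all genes, and 0 were higher, against 1.71%. The count lower was 9 with every array centred on its median signal (5.70% of all genes), 4 with quantile normalization (2.34%), 3 with the array factor removed (0.898%) and 7 without knock-out 2 (0.557%). The knock-out mean was below the wild-type mean for 40 of 48 members, against 34.6% of all genes. The median log2 change was -0.13 over the members and 0.04 over all genes, and the members ran from -0.53 for Mki67 to 0.17 for Cdc25c. The 95% interval of each of the 48 differences held both signs, and each limma adjusted p was 1.00. In no member were the groups free of overlap, against 0.0232% of all genes with every knock-out array lower and 0.0542% with every one higher.

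**Figure D1:**
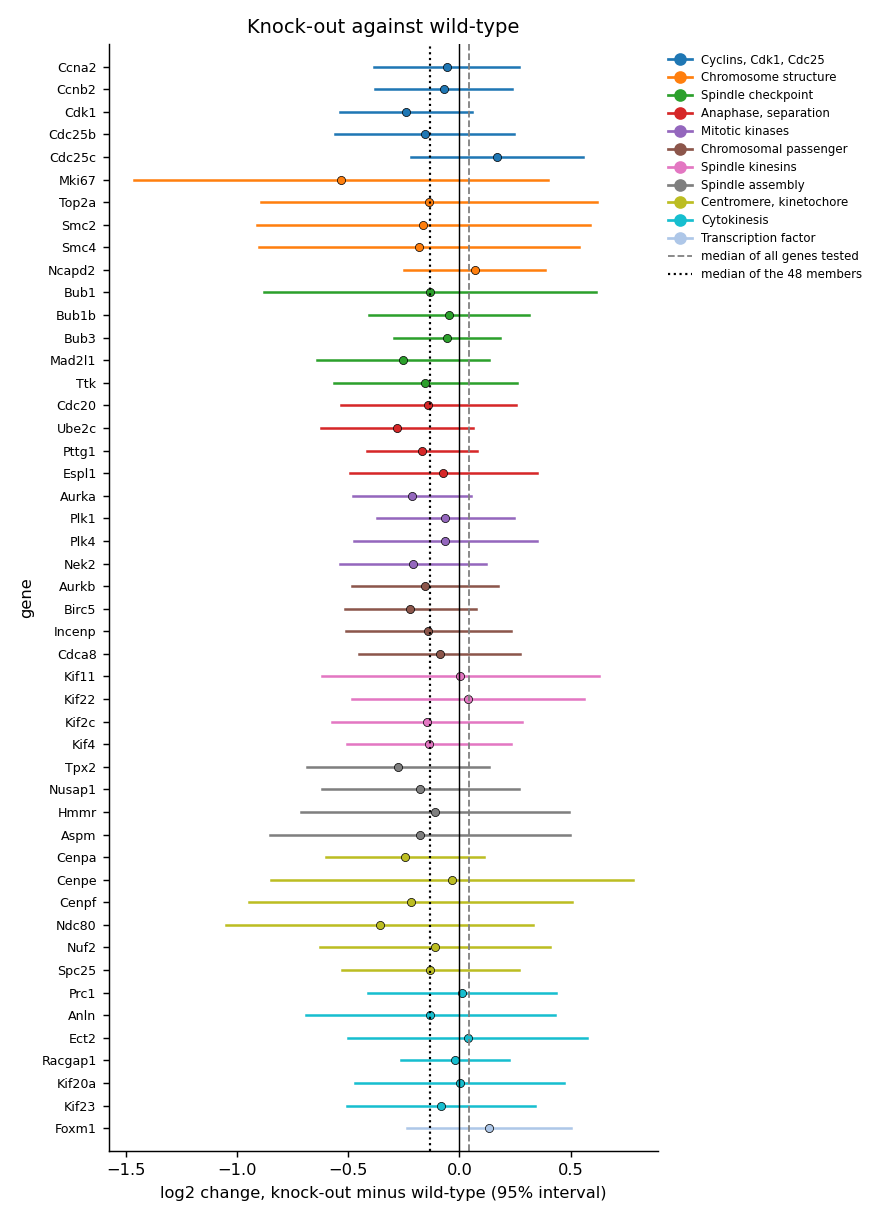
Log2 change of each of the 48 tested members, knock-out minus wild-type, with its 95% interval from limma, coloured by role; the dotted line is the members' median (-0.13) and the dashed line that of all genes (0.04). Every interval crosses 0, and 40 of the 48 points lie to its left.

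The small shift depended on single embryos and on scaling. The members' median of -0.13 was -0.22 when knock-out 2 was left out, -0.07 when wild-type 2 or knock-out 4 was, and -0.09 when wild-type 4 was. Without litter 250 it was -0.03, with 29 of 47 members lower, without litter 238 -0.07 and without litter 262 -0.09. Without the 3 arrays that stood apart it was -0.17, with 44 members lower, and without wild-type 2 and knock-out 1 it was -0.03, with 30 lower. When every array was centred on its median signal, the median of all genes went from 0.04 to -0.15 and all 48 members were lower; relative to the median of all genes, the members stood at -0.18 under both scalings and at -0.22 under quantile normalization. In bulk tissue, fewer dividing cells and less RNA per dividing cell cannot be told apart.

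Entry into mitosis is driven by Cdk1, its cyclins and the Cdc25 phosphatases that remove its inhibitory phosphates. Of 5 tested members, 4 had a lower knock-out mean, with a median log2 change of -0.07, and 0 were called. Cdk1 signal was 839 at the lowest, 948 at the median and 1112 at the highest in wild-type brains. Its knock-out values ran from 561 through a median of 843 to 1079.7. Knock-outs 7, 4 and 1 lay below every wild-type array, but knock-out 2 lay near the top of the wild-type range. Group means were 952 ± 96.3 (SD, n = 6) and 816 ± 174 (SD, n = 7), a log2 change of -0.24 ± 0.14 (SE) with a 95% interval of -0.54 to 0.06. Ccnb2 and Ccna2, which encode cyclins B2 and A2, stood at -0.07 ± 0.14 and -0.06 ± 0.15 (SE). Cdc25b was at -0.16 ± 0.19 (SE). Cdc25c was the highest member at 0.17 ± 0.18 (SE), a sign that turned with median centring, as it did for every member with a higher knock-out mean.

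Chromosome structure held the widest spread of any role. This role covers Mki67, the Ki-67 protein that coats mitotic chromosomes and marks cycling cells, Top2a, which untangles sister DNA, and the condensin subunits Smc2, Smc4 and Ncapd2. The knock-out mean was lower for 4 of 5, with a median of -0.16, and 0 were called. Mki67 signal ran from 154 through a median of 641 to 797 in wild-type and from 123 through 431 to 972 in knock-out brains. Wild-type 1, knock-out 1 and knock-out 4 were low, between 123 and 172, and every other array lay at 329 or above. The means were 586 ± 230 (SD, n = 6) and 432 ± 283 (SD, n = 7). Its log2 change was -0.53 ± 0.44 (SE), and this became -0.87 without wild-type 1 and -0.29 without knock-out 4.

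The same 3 arrays were the lowest for Top2a, in another order. Its signal was 282 at the lowest, 1267 at the median and 1374 at the highest in wild-type brains, and 472, 901 and 1875 in knock-out brains. Wild-type 1 was the lowest of all arrays, the other 5 wild-type arrays lay at 1197 or above, and among the knock-outs only knock-out 2 did. The log2 change of -0.14 ± 0.35 (SE) was -0.49 without wild-type 1 and 0.02 without knock-out 1. Smc2 and Smc4, the core ATPase subunits of condensin, were at -0.16 ± 0.35 and -0.18 ± 0.34 (SE). Ncapd2, a regulatory subunit of condensin, was at 0.07 ± 0.15 (SE).

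The spindle checkpoint genes all had lower knock-out means, 5 of 5, with a median of -0.13 and 0 called. Mad2l1, which encodes the Mad2 protein that restrains Cdc20, ran from 505 through a median of 633 to 759 in wild-type brains. In knock-out brains it ran from 390.2 through 458 to 928. 5 of the 7 knock-out arrays lay below every wild-type array, knock-out 3 lay within the wild-type range and knock-out 2 above it. The log2 change was -0.25 ± 0.18 (SE). Bub3, a checkpoint protein that docks Bub1 at kinetochores, varied least among members, with a highest array 1.55-fold above the lowest. It ran from 2972 through a median of 3507 to 4206 in wild-type brains and from 2706 through 3591 to 3660.3 in knock-out brains, and the groups overlapped. Its means were 3499 ± 412 (SD, n = 6) and 3368 ± 412 (SD, n = 7), a log2 change of -0.06 ± 0.11 (SE). The kinases Bub1 and Ttk and the kinase-like Bub1b stood at -0.13 ± 0.35, -0.15 ± 0.19 and -0.05 ± 0.17 (SE).

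Anaphase and separation genes likewise had lower means in all 4 members, with a median of -0.15 and 0 called. Ube2c is the ubiquitin-conjugating enzyme of the anaphase-promoting complex, and it had the smallest p of the members (unadjusted limma p = 0.0989, exact permutation p = 0.124). Its signal was 906, 1129 and 1433 at the lowest, median and highest wild-type array, and 762, 901 and 1562 at those of the knock-outs. Knock-out 2 was the highest array of all, 5 of the other knock-outs lay below the lowest wild-type array, and knock-out 3 lay inside the wild-type range. The means were 1157 ± 188 (SD, n = 6) and 965 ± 276 (SD, n = 7), a log2 change of -0.28 ± 0.16 (SE) with a 95% interval of -0.62 to 0.06. Pttg1, or securin, which holds separase inactive, had a log2 change of -0.17 ± 0.12 (SE), with wild-type arrays from 2036 through a median of 2587 to 3038 and knock-out arrays from 1876 through 2268 to 2613. Cdc20, the activator of the complex, was at -0.14 ± 0.19 (SE). Espl1, separase itself, was at -0.07 ± 0.20 (SE).

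The mitotic kinases were lower in mean for 4 of 4, with a median of -0.14 and 0 called. Aurka, the aurora kinase of centrosomes and spindle poles, ran from 257 through a median of 318 to 391 in wild-type brains and from 222 through 268 to 353 in knock-out brains. The groups overlapped over most of their range, and 2 knock-out arrays lay below the lowest wild-type array. Its log2 change was -0.21 ± 0.12 (SE) with a 95% interval of -0.48 to 0.05. Plk4, the kinase that starts centriole duplication, was at -0.06 ± 0.19 (SE), with wild-type 1 at 263 and every other array at 390.1 or above. Its median and highest array were 601 and 667 in wild-type and 491 and 679 in knock-out brains. Plk1, the polo kinase of mitotic entry and exit, was at -0.06 ± 0.14 (SE). Nek2, which separates the centrosomes, was at -0.21 ± 0.15 (SE).

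The chromosomal passenger complex, corrects faulty attachments and then moves to the midzone. All 4 of its members had lower means, with a median of -0.15, and 0 were called. Birc5, or survivin, had wild-type signals of 409.7, 462 and 567 at the lowest, median and highest array, and knock-out signals of 312, 400.5 and 572. Wild-type 1 and knock-out 2 were the top arrays of their groups and nearly equal. The log2 change was -0.22 ± 0.14 (SE) with a 95% interval of -0.51 to 0.07. Aurkb, the kinase of the complex, was at -0.15 ± 0.15 (SE). Incenp, its scaffold, ran from 787 through a median of 1094 to 1177 in wild-type and from 641 through 983 to 1394 in knock-out brains. Knock-outs 4 and 7 lay below every wild-type array and knock-outs 1 and 2 above, and the log2 change was -0.14 ± 0.17 (SE). Cdca8, or borealin, was at -0.09 ± 0.17 (SE).

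**Figure D2:**
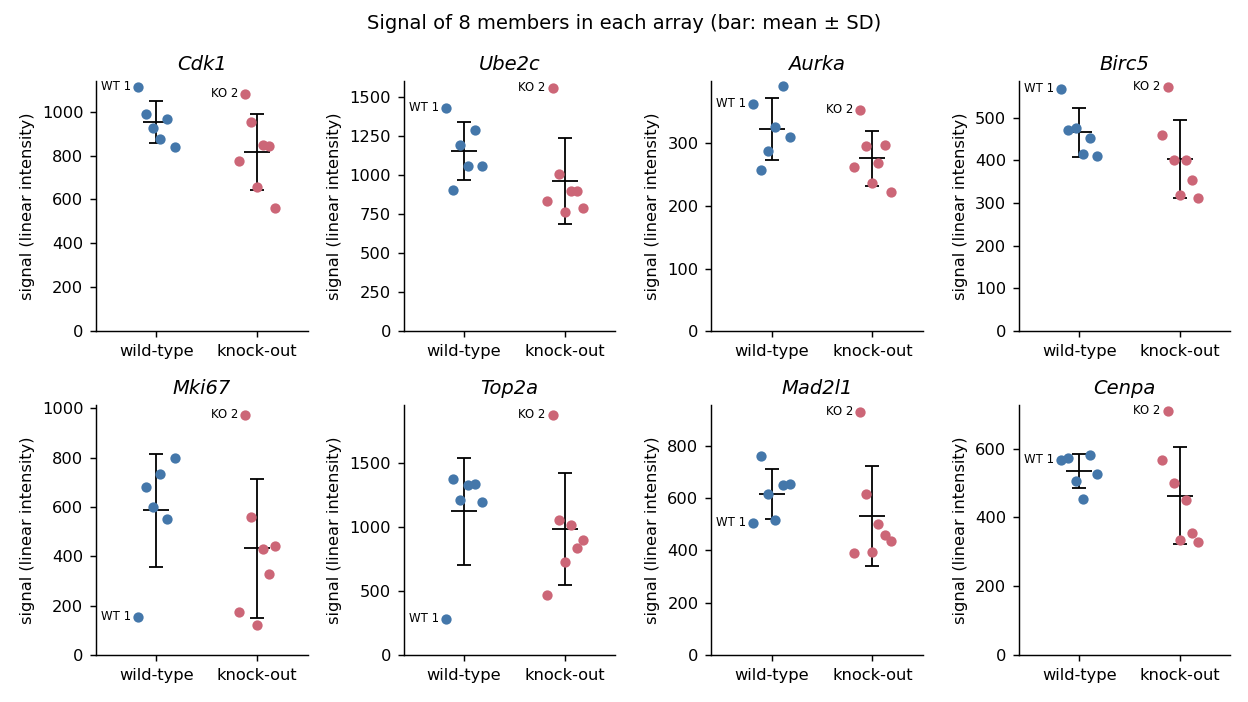
Signal on the deposited linear scale of 8 members, 1 point per array, with the mean and SD of each group as bars and with wild-type 1 and knock-out 2 labelled. For Cdk1, Ube2c, Aurka and Birc5 wild-type 1 is among the top wild-type arrays, for Mki67 and Top2a it is far below the rest, and knock-out 2 is the highest knock-out array in all 8.

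Motor proteins of the spindle were split, with 2 of 4 tested members lower in knock-out and 2 higher as deposited, and all 4 lower with median centring; 0 were called and the median was -0.07. Kif22, a kinesin that pushes chromosome arms outward, had a log2 change of 0.04 ± 0.24 (SE) that was negative under all 3 other scalings. Its wild-type arrays ran from 843 through a median of 967 to 1942 and its knock-out arrays from 599 through 973 to 1809. In this probe set wild-type 2, knock-out 1 and knock-out 2 were high. In the other Kif22 probe sets above the filter wild-type 2 was the lowest wild-type array, at 67.8 and 189. Knock-out 1 was at 108 and 271 there, and knock-out 2 at 153 and 321. Kif4, which organises chromosome axes and the midzone, ran from 156 through a median of 237 to 334 in wild-type and from 144 through 215 to 309 in knock-out brains. Wild-type 1 and knock-out 7 were its lowest arrays, the groups overlapped over most of their range, and the log2 change was -0.14 ± 0.17 (SE). Kif2c, which depolymerises microtubules, was at -0.14 ± 0.20 and Kif11, which pushes the poles apart, at 0.00 ± 0.29 (SE). Kif15 lay below the filter, at signals of 5.82 to 45.6 in wild-type and 11.03 to 65.6 in knock-out brains.

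Among spindle assembly factors the mean was lower for 4 of 4, with a median of -0.18 and 0 called. Tpx2, which activates aurora A on the spindle, ran from 229.7 through a median of 406 to 446 in wild-type and from 214 through 292 to 534 in knock-out brains. Knock-out 2 was the highest array, and the other 6 knock-out arrays lay below wild-types 2 to 6. The log2 change was -0.28 ± 0.19 (SE), and -0.41 without knock-out 2. Nusap1, a microtubule bundler, was at -0.18 ± 0.21 (SE), with wild-type 1 lowest at 212 and knock-out 2 highest at 592. Its medians were 425 in wild-type and 333 in knock-out brains, and the groups overlapped. Aspm, a spindle pole protein mutated in human primary microcephaly, was at -0.18 ± 0.32 (SE). Hmmr, a spindle pole adaptor, was at -0.11 ± 0.28 (SE).

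All 6 centromere and kinetochore members had lower knock-out means, with a median of -0.17 and 0 called. Cenpa, the histone variant that marks the centromere, had wild-type signals of 452, 546 and 582 and knock-out signals of 327, 452 and 708 at the lowest, median and highest array. Of 7 knock-out arrays, 4 lay at or below the lowest wild-type array, and knock-out 2 lay above all others. The SD was wider in knock-out brains, with means of 534 ± 49.5 (SD, n = 6) and 463 ± 141 (SD, n = 7), and the log2 change was -0.25 ± 0.17 (SE). Ndc80, Nuf2 and Spc25, subunits of the complex that grips microtubules, were at -0.36 ± 0.32, -0.11 ± 0.24 and -0.13 ± 0.19 (SE). Cenpe, a kinetochore kinesin, was at -0.03 ± 0.38 and Cenpf, a large kinetochore protein, at -0.22 ± 0.34 (SE).

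Cytokinesis was the role closest to no difference. Of its 6 members, 3 had lower and 3 higher means as deposited, but all 6 had lower means with median centring; the median change was -0.01 with 0 called. Racgap1, which joins Kif23 in the centralspindlin complex, ran from 513 through a median of 588 to 606 in wild-type and from 434 through 547 to 724 in knock-out brains. The wild-type arrays lay inside the knock-out range. It had means of 569 ± 42.7 (SD, n = 6) and 566 ± 92.1 (SD, n = 7) and a log2 change of -0.02 ± 0.11 (SE), with a 95% interval of -0.26 to 0.22. Anln, or anillin, a scaffold of the contractile ring, was at -0.13 ± 0.26 (SE). Its signal was lowest at 82.8 in wild-type 1 and 103 in knock-out 1, and every other array lay above 150. Median and highest array were 233 and 305 in wild-type and 195 and 309 in knock-out brains. Kif23, the motor of centralspindlin, was at -0.08 ± 0.20 (SE). Ect2, which activates RhoA at the furrow, was at 0.04 ± 0.25, and Prc1, which bundles midzone microtubules, at 0.01 ± 0.20 (SE). Kif20a, a midzone kinesin, was at 0.00 ± 0.22 (SE).

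Foxm1, the transcription factor that drives many G2/M genes, had a wild-type mean of 188 ± 26.4 (SD, n = 6) against 214 ± 66.0 (SD, n = 7) without Meg3. The log2 change was 0.13 ± 0.17 (SE), and it was -0.01 with quantile normalization and -0.06 with median centring. Wild-type arrays ran from 144 through a median of 198 to 213, and knock-out arrays from 141 through 215 to 314. In the probe set used, knock-outs 1 and 4 were the highest arrays, which were low arrays for Mki67 and Top2a. The other Foxm1 probe sets above the filter did not share this. There knock-out 1 stood at -0.37 and -0.44 from the probe set's median, and knock-out 4 at 0.12 and -0.23. Their log2 changes were both -0.08. Over the 19 members described array by array, two-sided exact permutation tests over the 1716 splits of the arrays gave p from 0.0985 (Aurka) to 0.896 (Kif22), and at least 0.520 after Benjamini-Hochberg adjustment over the 19.

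The median over all probe sets of each gene, those below the filter included, was also taken in place of the brightest. Then 32 of 42 tested members were lower, and the median was -0.08 with 0.07 over all genes. At an unadjusted limma p under 0.05, 1 member was higher, and 0 were called. The members had 119 probe sets, of which 84 were above the filter; 61 of these 84 had a lower knock-out mean and 0 were called. Of 23 members with several probe sets above the filter, 7 had all lower, 2 all higher and 14 a mixture. Incenp was among the mixed: its brightest probe set was at -0.14, and its weakest above the filter at 0.49 ± 0.22 (SE) with a limma adjusted p of 0.947.

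Mitotic genes varied more between embryos than most genes did. The SD over the 13 arrays on the log2 scale had a median of 0.363 over the members and 0.271 over all genes. Of 48 members, 39 lay above that gene median, and 10 were above the 95th percentile. These 10 were Mki67, Cenpe, Top2a, Smc2, Bub1, Cenpf, Smc4, Ndc80, Aspm and Kif11. Each lay about 1 log2 unit or more below its own median in wild-type 1, an array that stood apart. The spread without that array was not computed. From the lowest to the highest array the signal differed by 1.55-fold for Bub3, 7.13-fold for Mki67 and 2.43-fold at the median.

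Knock-out 2 carried the highest levels. It was the highest of the 13 arrays for 29 of 48 members, against 9.48% of all genes, and all 48 lay above their own median there, by 0.47 log2 units at the median. Among its littermates, wild-type 1 was the lowest array for 18 members, against 25.01% of all genes. Knock-out 7 was the lowest for 16, against 14.5%, and knock-out 4 for 7, against 6.49%. The members' median deviation was -0.43 in wild-type 1, -0.38 in knock-out 4, -0.30 in knock-out 7, -0.24 in knock-out 6 and -0.21 in knock-out 1.

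**Figure D3:**
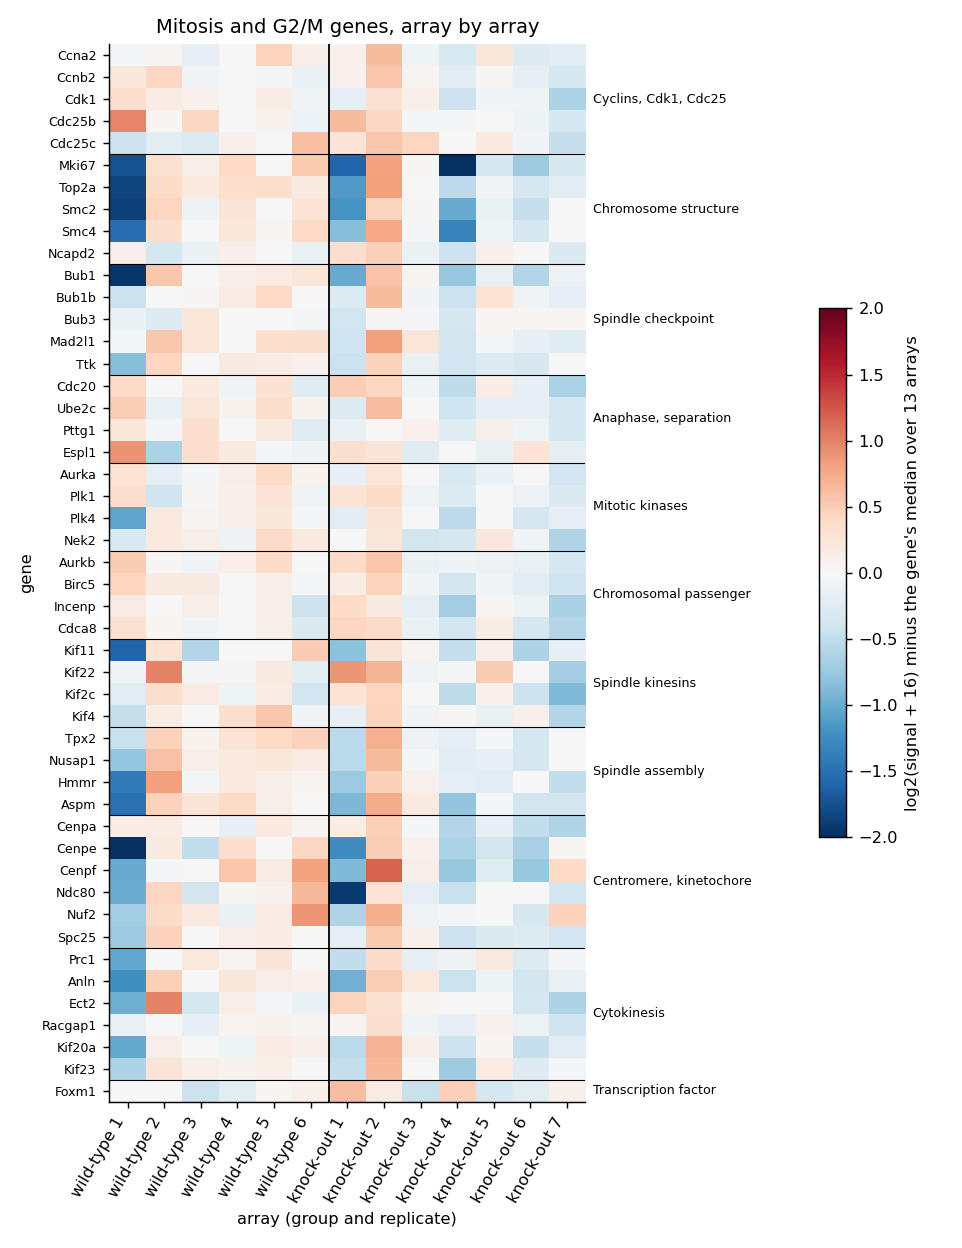
Log2 signal of each tested member minus its own median over 13 arrays, in colour, with genes in rows by role and arrays in columns by group. Knock-out 2 is red or close to white in every row of the plot, and wild-type 1 holds both deep blue cells, such as Mki67, Top2a, Bub1 and Cenpe, and red cells such as Cdc25b and Espl1.

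Wild-type 1 was low in a subset of members only. There 14 members lay over 1 log2 unit below their own median, against 9.80% of all genes: Mki67, Top2a, Smc2, Smc4, Bub1, Plk4, Kif11, Hmmr, Aspm, Cenpe, Cenpf, Prc1, Anln and Kif20a, with a median of -1.51. The other 34 members had a median of -0.04 in the same array, and 15 were above their own median, among them Cdc25b by 0.98, Espl1 by 0.89, Aurkb by 0.51 and Ube2c by 0.50. These 14 genes were picked by their values and are described without a test. They were also all below their own median in knock-out 1, with a median of -0.89, and in knock-out 4, with a median of -0.58. The other 34 members stood at 0.07 in knock-out 1, but in knock-out 4 they too were low, at -0.31 with 29 below. In knock-out 6, 13 of the 14 were below, with a median of -0.41, and 27 of the other 34, with a median of -0.16. In knock-out 2 the 14 stood at 0.53 and the other 34 at 0.44. Of all genes, 48.2% lay above their own median in knock-out 1 and 33.8% in knock-out 4. Of 12 other probe sets of these 14 genes above the filter, 12 were below their median in wild-type 1. Of these, 6 were below by over 1. They read the same genes in the array by which the genes were picked, so they give no independent support for the subset. Of all genes, 45.6% lay above their own median in wild-type 1. The 3′ to 5′ ratio of Actb was 1.34 in wild-type 1 and 1.404 in knock-out 4, within the range of most arrays, and 1.81 in knock-out 1; its part in these levels was not tested beyond the covariate fit, in which 38 members were lower, with a median of -0.10.

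Within litters the members did not point the same way. In litter 219 the knock-out level was lower for 2 of 48 members, against 30.1% of all genes, with a median difference of 0.59. In litter 238 it was lower for 41, against 56.1%, with a median of -0.26. In litter 250 it was lower for 45, against 39.5%, with a median of -0.24, and in litter 262 for 46, against 55.6%, with a median of -0.38. The medians of all genes in these litters were 0.16, -0.04, 0.03 and -0.03. Higher in litter 219 alone was the pattern of 37 of 48 members and of 8.50% of all genes. Litter 219 rests on knock-out 2 against wild-types 1 and 2: against wild-type 1 the members' median was 0.95 and against wild-type 2 it was 0.29, with 43 of 48 higher in each case. Sex was read from Xist, which is expressed in females: its signal was 5525 to 13526 in wild-types 3 and 5 and knock-outs 1, 2 and 7, and 47.0 to 121 in the other arrays. In litters 219, 238 and 262 every knock-out embryo was thus of the other sex than its wild-type littermates, so sex and genotype cannot be told apart within them. With log2 Xist signal as a covariate over all arrays, 42 members were lower, with a median of -0.15, and 0 were called.

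**Figure D4:**
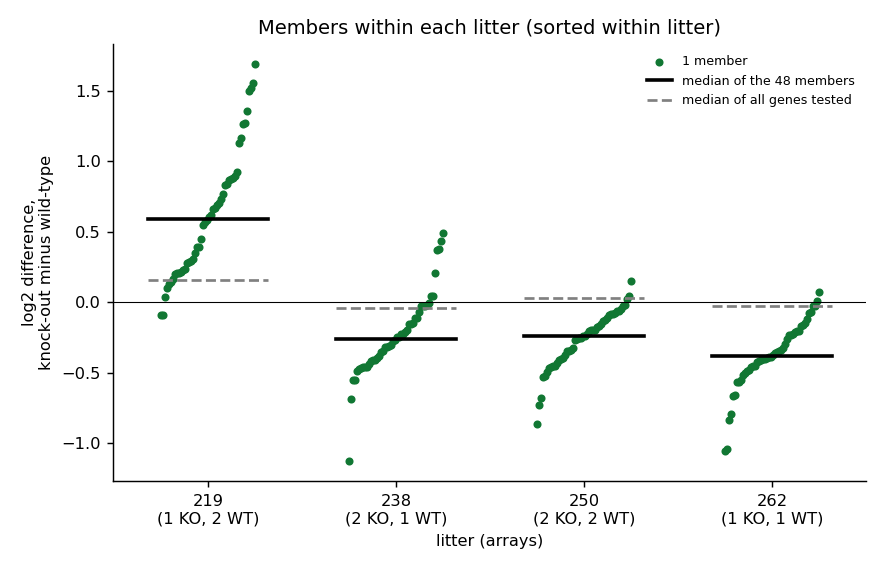
Log2 difference, knock-out minus wild-type, of each tested member within each litter that holds both genotypes, sorted by size, with the members' median (solid) and the median of all genes (dashed). Members lie mostly above 0 in litter 219 and mostly below 0 in the other 3 litters.

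Single embryos set the size in the other litters too. In litter 238 knock-out 3 differed from wild-type 3 by a median of -0.05, and knock-out 4 by -0.41. In litter 250 the medians were -0.05 and -0.16 for knock-out 5 against wild-types 4 and 5, and -0.24 and -0.46 for knock-out 6. For Mki67 the differences in litters 219, 238, 250 and 262 were 1.52, -1.13, -0.73 and -0.84. Those of Cdk1 were 0.04, -0.23, -0.12 and -0.57, and those of Ube2c 0.45, -0.44, -0.37 and -0.42, in the same order. Lower in knock-out in all 4 litters was the pattern of 2 of 48 members, near the 3.28% of all genes. They were Pttg1, with differences of -0.09, -0.41, -0.08 and -0.12, and Cdc25b, with -0.09, -0.46, -0.08 and -0.23. Another Pttg1 probe set above the filter, with a mean signal of 634, had a log2 change of -0.02 over all arrays.

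The test of genotype by litter, a limma F-test over the 12 arrays of the 4 mixed litters, called 0 of 12918 genes (0%) and 0 members. The test had few residual degrees of freedom, so 0 calls do not show that the litters agree. At an unadjusted p under 0.05 it took 2 members, Cdc25c and Cenpf, against 1.42% of all genes, and the limma adjusted p was 1.00 for each. Cdc25c differed by 0.87 in litter 219 and -1.06 in litter 262, and Cenpf by 1.69 in litter 219 and -0.86 in litter 250. Differences among litters, with genotype in the fit, were called for 8 genes (0.0619%) and 0 members. At an unadjusted p under 0.05 there were 4 members (Ccnb2, Cdca8, Incenp and Kif22), against 12.4% of all genes, and the smallest adjusted p of a member was 0.214 for Ccnb2. Leaving out knock-out 2, the only knock-out array of litter 219, took that whole litter out of the test, and the 8 became 309. Leaving out wild-type 1 or 2 gave 85 or 74. The count was 5 when wild-type 4, knock-out 3 or knock-out 4 was left out, 4 for wild-type 5 and 3 for knock-out 6. It was 2 for wild-type 6 or knock-out 7, each of which took litter 262 out of the test. There were 0 members in each case.

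Leaving litter 219 out gave the members' largest shift among the litters. Then 45 of 48 were lower, with a median of -0.30 and -0.01 over all genes, 18 were lower at an unadjusted p under 0.05, against 0.932% of all genes, and 0 were called; litter 219 holds both wild-type 1 and knock-out 2. Without wild-type 1 and knock-out 2 alone, a setting chosen after the values were seen, 44 were lower with a median of -0.32 and 0 were called; these arrays were the low wild-type and the high knock-out array for the members, so the choice itself moves the median down. With litter as a block in the fit, 36 were lower with a median of -0.06.

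**Figure D5:**
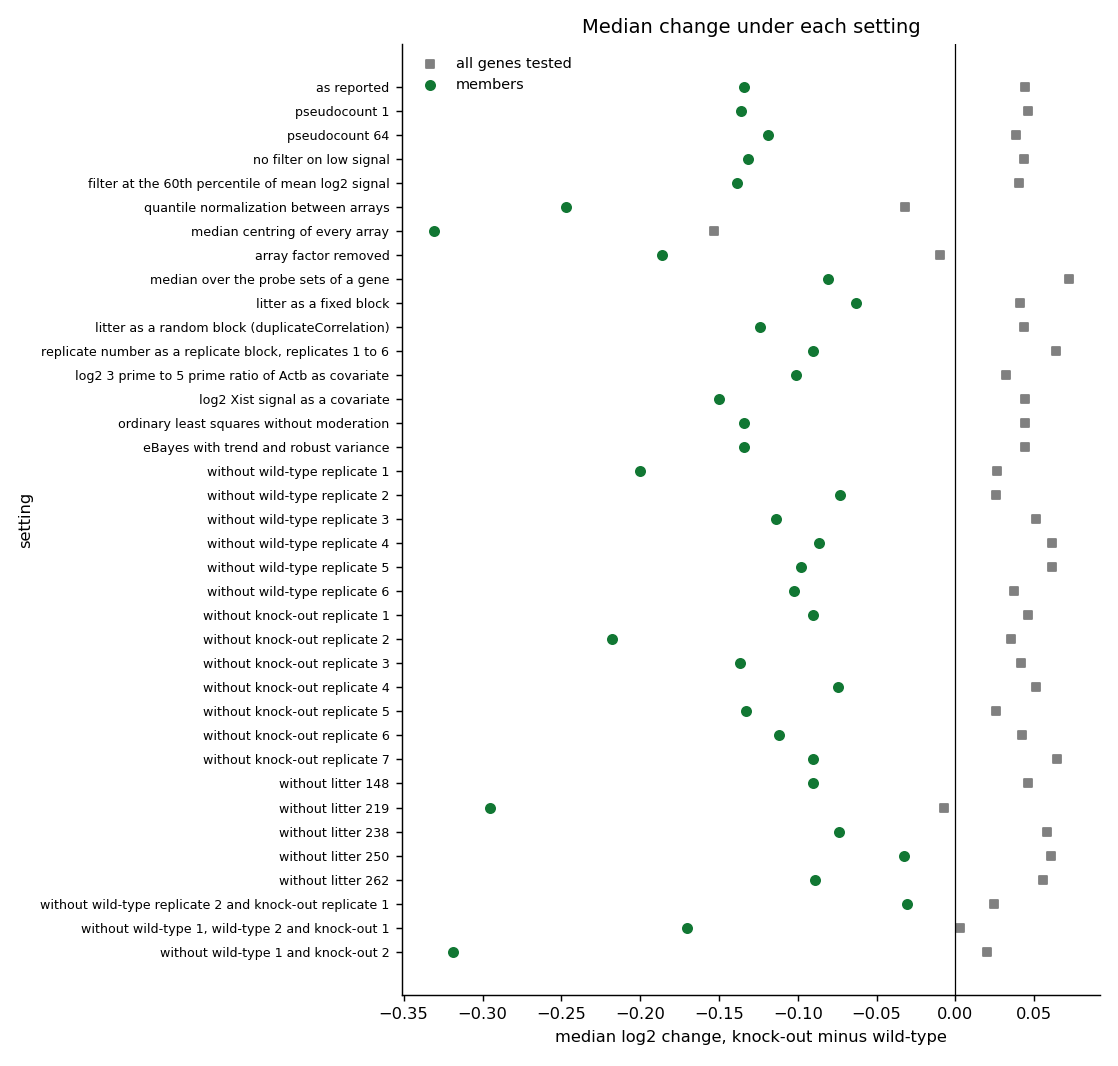
Median log2 change, knock-out minus wild-type, of the members (circles) and of all genes tested (squares) under the reported fit, at the top, and each alternative setting. The members' median stays below 0 in every setting, between -0.33 with median centring and -0.03 without litter 250 or without wild-type 2 and knock-out 1.

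Other genes of the cell cycle showed smaller medians and no calls either. A further list of mitotic genes had 54 of 64 tested, of which 36 were lower, with a median of -0.06 and litter medians of 0.53, -0.09, -0.25 and -0.28 in the order above. Its members with the smallest p were Kifc1, a minus-end kinesin, at -0.35 ± 0.19 (SE) and Cks2, a Cdk-binding protein, at -0.34 ± 0.20 (SE). Of 16 regulators of G2 entry and of the MYB-MuvB and NF-Y complexes, 10 were lower, with a median of -0.03; Lin52, a MuvB subunit, was at 0.34 ± 0.18 and Nfyc, an NF-Y subunit, at -0.18 ± 0.11 (SE). Of 23 tested G1 cyclins, kinases and inhibitors, 15 were lower with a median of -0.05, and Rb1, the retinoblastoma protein, was at 0.23 ± 0.14 and Cdkn2c, an inhibitor of Cdk4, at -0.24 ± 0.16 (SE). Of 36 tested S phase genes, 23 were lower with a median of -0.03 and litter medians of 0.35, -0.08, -0.13 and -0.20. Fen1, a flap nuclease, was at 0.24 ± 0.14 and Cdc45, a part of the replicative helicase, at -0.22 ± 0.14 (SE). In all 4 lists 0 genes were called by limma, and 0 were at an unadjusted p under 0.05.

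Markers of the dividing and the postmitotic cells of the brain were read beside these values. Of 14 neural progenitor markers (Sox2, Pax6, Nes and others), 8 were lower, with a median of -0.01, and their summed signal was 36581 to 45373 in wild-type and 37683 to 43986 in knock-out brains. Of 7 markers of cerebellar granule cell progenitors, such as Atoh1, 6 were lower with a median of -0.15, and the sum was 11598 to 13353 against 8914 to 13761. Of 15 neuronal markers 4 were lower, with a median of 0.06. Of 7 tested choroid plexus markers 6 were lower, with a median of -0.51, and the summed signal of the 8 with a probe set was 23077 to 38774 against 9079 to 32022. None of these markers was called or stood at 0. The progenitor lists did not follow the members in every array: in wild-type 1 the granule cell progenitor markers were 0.39 and the neural progenitor markers 0.14 above their medians, the further mitotic genes 0.52 below. In knock-out 7 both progenitor lists were low, at -0.68 and -0.41. So were the markers of meninges (-1.41), choroid plexus (-1.37), red cells (-1.25), microglia (-0.53) and endothelium (-0.50). Its littermate wild-type 6 was also low for meninges (-0.9998), red cells (-0.76), microglia (-0.53), endothelium (-0.35) and choroid plexus (-0.35). The progenitor lists stood at -0.04 and -0.12 in wild-type 6. Of 10 listed red cell genes, 2 were tested. In knock-out 4 the choroid plexus markers were at -1.41. In knock-out 2 the granule cell progenitor markers were at 0.26, the neural progenitor markers at 0.13 and the S phase genes at 0.38. The part of these markers in the members' levels was not tested.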

How the data were processed

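Per the labels' protocols, 5 µg of total RNA per brain was turned into biotinylated cRNA with the Affymetrix one-cycle procedure. The authors deposited linear probe set intensities; no source used here gives the software, summary method or scaling. Their centring was therefore taken as given, and 4 scalings were compared. Of its 45101 probe sets 64 were controls, 34945 had 1 gene symbol, 932 several and 9160 none in the platform annotation. Entrez identifiers of 34741 were found in the RefSeq gene table and 0 symbols changed.

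Intensities were turned into log2(signal + 16), and 1 probe set per gene, that with the highest mean signal, was used. A gene was kept if this probe set lay above the 40th percentile of mean log2 signal over all probe sets but the controls. The test was limma 3.58.1 (lmFit, eBayes; R 4.3.3), which is two-sided, and p-values were adjusted by Benjamini-Hochberg over 12918 genes, with a threshold of 0.05 and no litter term. Litter was read from the leading number of the embryo label. Single values were compared by exact permutation. The gene test was tested on simulated data. Python 3.11.15, pandas 2.3.3 and matplotlib 3.10.9 were used for description and plots. The number of arrays limits the precision.

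From each role the member with the highest signal and the member with the smallest p were described array by array, with Mki67, Top2a, Cdk1, Aurka and Foxm1 always; from each further cell cycle list the 2 with the smallest p were named. The members, lists and rules were chosen with earlier results of these data known. Same-numbered arrays share a litter in 3 of 6 cases, so the replicate numbers were not taken as pairs. Alternatives covered the pseudocount, the filter, scaling, probe set choice, blocks, covariates, and leaving out arrays and litters.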

Additional observations from a re-analysis of the deposited data

Results flagged for a closer look

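In 11 of 40 groups checked, an array lay far from the other arrays of its group by Dixon's criterion at the 95% level, which chance alone gives in about 1 of 20 groups, and the members are not independent of each other. Wild-type 1 was the low array for Mki67 (log2 signal 7.41), Top2a (8.22), Plk4 (8.13), Nusap1 (7.83) and Anln (6.63). Its nearest neighbours among the wild-type arrays were at 9.15, 10.24, 9.15, 8.74 and 7.86. Knock-out 2 was the high array for Ube2c (10.62) and Tpx2 (9.10), with the next knock-out arrays at 10.002 and 8.39. Wild-type 6 was the low array for Incenp (9.65) and wild-type 2 the high array for Kif22 (10.94). In the other Kif22 probe sets above the filter wild-type 2 was instead the lowest wild-type array. The median deviation of the 48 members from their own medians stood apart in the same manner, at -0.43 in wild-type 1 and 0.47 in knock-out 2. Both of these embryos came from litter 219. The cause was not tested.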

How the results depend on the processing

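Under 36 alternatives the number of members called stayed at 0, the number of genes called between knock-out and wild-type ran from 2 to 4, and the members' median stayed below 0. Members with a lower mean numbered 29 to 48. Leaving out 1 array at a time gave 36 to 46 lower members and medians of -0.22 to -0.07. No member named passed the threshold in any alternative (smallest limma adjusted p 0.635). The number of genes called among litters, 8 as reported, was 5 with a pseudocount of 1, 5 without a filter, 4 with the filter at the 60th percentile, 67 with quantile normalization and 98 with median centring. It was 2 to 309 with 1 array left out. An array that was alone of its genotype in its litter took the whole litter out of that test. The genotype by litter count, 0 as reported, was 0 to 4 with 1 array left out (4 without wild-type 1). Signs turned as follows, with the cause not tested. With quantile normalization Kif22 was at -0.0063 and Foxm1 at -0.014. With median centring they were at -0.16 and -0.063, and with the array factor removed Kif22 was at -0.017. With the median over the probe sets of a gene, Top2a was at 0.25, Incenp 0.49, Nusap1 0.041, Kif22 -0.21 and Foxm1 -0.11. This median takes in probe sets below the filter. For Top2a and Incenp it gave the change of a weak probe set, with mean signals of 93.6 and 76.3. With litter as a fixed block Top2a was at 0.00021. With the replicate number as a replicate block, Racgap1 was at 0.041, 40 members were lower, the median was -0.091 and no call changed; deviations of same-numbered arrays correlated at -0.26 to 0.40, over 0.1 in 3 of 6, and 1 knock-out array was closest to its own number. Without litter 148 Top2a was at 0.017 and Kif22 at -0.079. Without litter 238 Bub3 was at 0.033, Plk4 0.011 and Incenp 0.0019. Without litter 250 Top2a was at 0.060, Plk4 0.072, Kif22 -0.012, Kif4 0.030, Anln 0.00066 and Racgap1 0.012, and without litter 262 Racgap1 was at 0.056. Without wild-type 2 and knock-out 1 Top2a was at 0.11, Plk4 0.0068 and Anln 0.10. With 1 array left out, the range was -0.49 to 0.017 for Top2a, -0.26 to 0.00064 for Plk4, -0.079 to 0.21 for Kif22 and -0.079 to 0.041 for Racgap1. Signal over background limits the weakest members, above all Ndc80 and Cdc25c. The settings without 3 arrays and without wild-type 1 and knock-out 2 were chosen after seeing the data.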
